A study of Mus musculus with 10 samples.

Results

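In leukemic spleens, 10 genes of natural killer (NK) cells and cytotoxic lymphocytes were examined: the granule genes Gzma, Gzmb, Prf1 and Nkg7, the receptor genes Klrb1c, Klrd1, Klrk1 and Ncr1, the cytokine gene Ifng and the transcription factor gene Eomes. They were taken by symbol from a table of 20813 genes. Values were found for 9 of the 10, and expression of Ncr1 was not analysed here. Of these 9, 6 had a mean of at least 10 normalized counts over all samples and entered the test: Gzma, Prf1, Nkg7, Klrd1, Klrk1 and Eomes. Gzmb, Klrb1c and Ifng fell below that minimum and are given by their values.

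RNA came from spleens of sub-lethally irradiated mice into which T-cell acute lymphoblastic leukemia (T-ALL) cells carrying a conditional Sirt1 allele had been transplanted. All 10 samples share that leukemia and the strain label C57BL/6. The 5 samples labelled Sirt1 deleted carry the titles TMX7, TMX8, TMX10, TMX11 and TMX12 and belong to the tamoxifen arm (3 mg per mouse, in corn oil), and the 5 labelled Control carry the titles VEH2 to VEH6 and belong to the arm given corn oil alone. Genotype and drug therefore cannot be told apart. Tissue was a whole spleen suspension after red cell lysis, with host cells and leukemia cells together, so fewer cells of a type and less RNA per cell cannot be told apart. The labels do not give the age of the mice, the Cre driver or whether the leukemia was 1 clone. Nor do they state whether each sample is a separate animal, so p-values measure the spread between these samples.

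Sirt1 ranged from 1715 to 2097 normalized counts under the Sirt1-deleted label and from 1735 to 1909 among controls (log2 difference 0.05 ± 0.06 SE, adjusted p = 0.568 by limma). Its gene-level value did not separate the groups, and every direction below is drawn from the labels. Column totals were 33.7 to 34.5 M normalized counts, and the spacing of low values put 1 read at 0.890 to 1.10 normalized counts, or about 31.3 to 38.3 M reads per sample. A value under 10 therefore rests on about 10 reads or fewer. The T-cell marker Cd3e was high in both groups, with 12238 ± 483 for the controls against 11998 ± 1695 (SD, n = 5 per group).

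NK cells and cytotoxic T cells kill target cells by releasing granules. Perforin opens the way through the target membrane, and granzymes, which are serine proteases, enter and cleave proteins inside. Recognition is set by a balance of activating and inhibitory receptors, many of them C-type lectins encoded together in the NK gene complex. Granzyme A is a tryptase and granzyme B cleaves after aspartate.

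Gzma and Gzmb encode related proteases but differed widely in level, so their promoters are shown, with that of Eomes, which shares 1 motif match with Gzma. Each line gives the 250 bases before the RefSeq start on the gene's own strand (GRCm38.p6), 5′ to 3′, for Gzma at chr13:113100982-113101231 (minus strand), Gzmb at chr14:56262335-56262584 (minus strand) and Eomes at chr9:118477939-118478188 (plus strand). Capitals mark a match to one of the motifs listed after the sequences.
Gzma: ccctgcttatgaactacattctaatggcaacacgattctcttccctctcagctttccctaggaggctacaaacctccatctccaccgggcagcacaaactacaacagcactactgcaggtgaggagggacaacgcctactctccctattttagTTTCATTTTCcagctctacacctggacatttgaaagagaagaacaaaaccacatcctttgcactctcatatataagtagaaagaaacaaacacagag
Gzmb: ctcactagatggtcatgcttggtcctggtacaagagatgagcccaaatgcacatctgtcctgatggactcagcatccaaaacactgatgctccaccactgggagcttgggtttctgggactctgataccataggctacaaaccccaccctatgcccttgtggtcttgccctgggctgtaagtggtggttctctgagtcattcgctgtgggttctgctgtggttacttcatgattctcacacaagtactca
Eomes: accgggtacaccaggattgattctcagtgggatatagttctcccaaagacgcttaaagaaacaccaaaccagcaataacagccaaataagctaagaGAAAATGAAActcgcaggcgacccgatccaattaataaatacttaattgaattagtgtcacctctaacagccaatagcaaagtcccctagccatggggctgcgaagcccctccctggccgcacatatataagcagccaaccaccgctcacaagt

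Both strands were searched for an interferon element (GAAA, any 2 bases, GAAA), a GAS element (TTCNNNGAA), a T-box site (AGGTGTGA) and an ETS site (CCGGAAGT). RefSeq promoters were at hand for 9 of the 10 genes, all but Klrd1 and with Ncr1 among them. The interferon element matched in Gzma, 97 to 88 bases before the start, and in Eomes, 154 to 145 bases before it. It was present in 936 of 27025 genes with a promoter (3.46%). Nkg7 held a T-box site, found in 1.3% of genes, and a GAS element, found in 8.13%, and Ifng held a GAS element. No ETS match was found in the 9 genes with a promoter, against 3.23% of all. No listed motif matched in the Gzmb window. A match is a description of letters and not a binding site.

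Gzma had the highest normalized count of the group in every library. It measured 16473, 17384, 12520, 14406 and 14127 normalized counts in labelled Sirt1-deleted replicates 7, 8, 10, 11 and 12, and 10171, 14987, 12286, 13622 and 15385 in control replicates 2 to 6. Control replicate 2 was the lowest and labelled replicate 8 the highest, and the groups overlapped. Means were 14982 ± 1944 against 13290 ± 2128 (SD, 5 per group), a log2 difference of 0.18 (SE 0.11, 95% interval -0.07 to 0.43; limma adjusted p = 0.238; exact two-sided permutation p = 0.246). Without control replicate 2 the difference was 0.086. The gene (ENSMUSG00000023132.8) lies at chr13:113093825-113100981, and no 31-base stretch of its longest coding transcript occurs in a transcript of another gene.

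Gzmb was near the detection limit in the same libraries. It measured 9.29, 7.43, 3.22, 37.4 and 6.03 in labelled replicates 7, 8, 10, 11 and 12, and 0, 9.62, 13.3, 8.79 and 4.24 in control replicates 2 to 6. Labelled replicate 11 stood apart and the other 9 libraries overlapped fully. The log2 difference was 0.73 (exact two-sided permutation p = 0.476), and it was 0.25 without labelled replicate 11 and 0.086 without control replicate 2. Of its 31-base stretches, 1.35% occur in another gene, all in Gzmc.

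Prf1 encodes perforin. Its values were 20.7, 18.5, 14.5, 23.5 and 27.3 in labelled replicates 7, 8, 10, 11 and 12, and 13.9, 14.8, 22.3, 11.7 and 18.4 in control replicates 2 to 6. All libraries lay in 1 narrow band and the groups overlapped. Perforin RNA differed by 0.35 on the log2 scale (SE 0.26, 95% interval -0.22 to 0.92; limma adjusted p = 0.317; exact permutation p = 0.143).

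Nkg7, a membrane protein of cytotoxic granules, came closest to the threshold. It measured 66.8, 119, 38.8, 68.2 and 55.9 in labelled replicates 7, 8, 10, 11 and 12, and 21.9, 45.6, 49.7, 46.7 and 45.6 in control replicates 2 to 6. Only labelled replicate 10 fell within the range of the controls. The log2 difference was 0.68 (SE 0.30, 95% interval 0.03 to 1.33; limma p = 0.0405 before adjustment and 0.0921 after; exact permutation p = 0.0635). Its adjusted p passed the threshold in 2 alternatives, at 0.0289 without labelled replicate 10 (log2 difference 0.86) and at 0.0363 with sample weights (0.77), and it was 0.291 after quantile normalization (0.43).

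**Figure D1:**
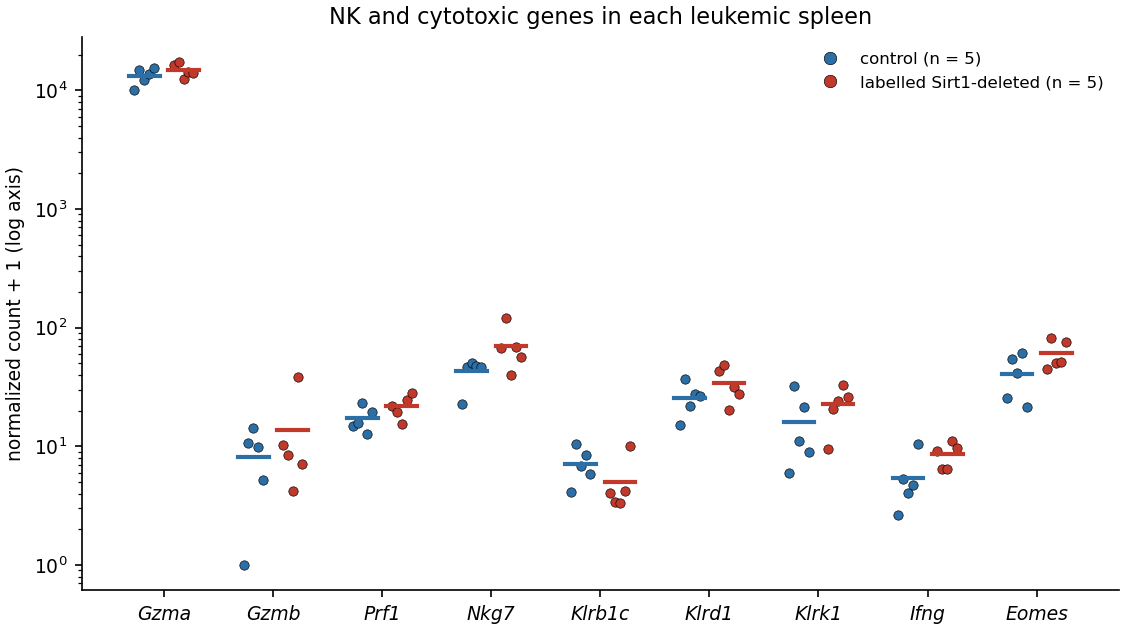
Normalized count plus 1 (log axis) of the 9 genes with values in each sample, with controls in blue, labelled Sirt1-deleted samples in red and the mean of each group of 5 as a bar. Gzma lies above 10000 in all libraries, while the other genes lie at or below 119 and their groups overlap.

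The receptor genes were low throughout. Klrd1 encodes CD94, the partner chain of NKG2 receptors. It measured 42.4, 47.9, 19.4, 30.8 and 26.8 in labelled replicates 7, 8, 10, 11 and 12, and 14.1, 35.8, 20.7, 26.6 and 25.5 in control replicates 2 to 6. Labelled replicates 7 and 8 were above every control and the other 3 were within the control range. Between the groups Klrd1 differed by 0.42 on the log2 scale (SE 0.30, 95% interval -0.23 to 1.07; limma adjusted p = 0.29; exact permutation p = 0.206).

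Klrk1 encodes NKG2D, an activating receptor for stress-induced ligands. It measured 8.48, 19.7, 23.1, 32.2 and 25.3 in labelled replicates 7, 8, 10, 11 and 12, and 4.91, 31.5, 10.1, 20.4 and 8.02 in control replicates 2 to 6. Its spread was the widest of the tested genes, and both groups held libraries below 10 and above 30. The log2 difference was 0.67 (SE 0.48, 95% interval -0.37 to 1.70; limma adjusted p = 0.293; exact permutation p = 0.262).

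Klrb1c encodes NK1.1, the antigen by which NK cells of this strain are usually identified. It ranged from 2.34 to 9.06 in the labelled samples (median 3.05) and from 3.15 to 9.43 in controls (median 5.78). The groups overlapped, and its log2 difference of -0.58 was the sole negative one among the 9 genes (exact two-sided permutation p = 0.151). The annotation marks its locus as overlapping another, and 20.3% of its 31-base stretches occur in other genes, so even these few reads are uncertain.

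Ifng encodes interferon gamma, the main cytokine that NK and cytotoxic T cells secrete. It measured 8.17, 5.44, 5.50, 10.1 and 8.68 in labelled replicates 7, 8, 10, 11 and 12, and 1.65, 4.29, 3.04, 3.75 and 9.45 in control replicates 2 to 6. Control replicates 2 to 5 were below every labelled sample and control replicate 6 was within the labelled range. The log2 difference was 0.77 (exact permutation p = 0.0635), on values of about 2 to 10 reads, and in a fit without a minimum mean its limma adjusted p was 0.178. Of its 31-base stretches, 16.6% occur in the locus Gm49751, so this value too is uncertain.

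Eomes encodes a T-box factor of NK cells and memory T cells. It measured 43.9, 80.6, 49.5, 50.1 and 75.0 in labelled replicates 7, 8, 10, 11 and 12, and 24.7, 53.4, 40.3, 59.6 and 20.5 in control replicates 2 to 6. Labelled replicates 8 and 12 were above all controls, and control replicates 2, 4 and 6 were below all labelled samples. On the log2 scale Eomes differed by 0.65 (SE 0.31, 95% interval -0.01 to 1.31; limma adjusted p = 0.114; exact permutation p = 0.103).

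Of the 6 tested genes, 0 passed the threshold of an adjusted p under 0.05 (limma), where 36.1% of all 15276 tested genes did. Before adjustment 1 of the 6, Nkg7, had a limma p under 0.05, where 46.3% of tested genes did, and an exact rank-sum test with adjustment called 0. None of the 6 had groups without overlap, against 24.0% of tested genes. The rank-sum test called 3659 genes, as many as lacked overlap, so it adds nothing to that count. All 6 log2 differences were above 0, as were those of 7635 of the 15276 tested genes (50%), and their median was 0.54 against -0.00014 over all tested genes. Among tested genes with a mean from 10 to 100, where all but Gzma lie, 68.5% were above 0 and 19.5% passed the threshold. The upper ends of the intervals of the 5 low genes lay between 0.92 and 1.70 on the log2 scale, and differences up to those bounds are not excluded by these samples.

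**Figure D2:**
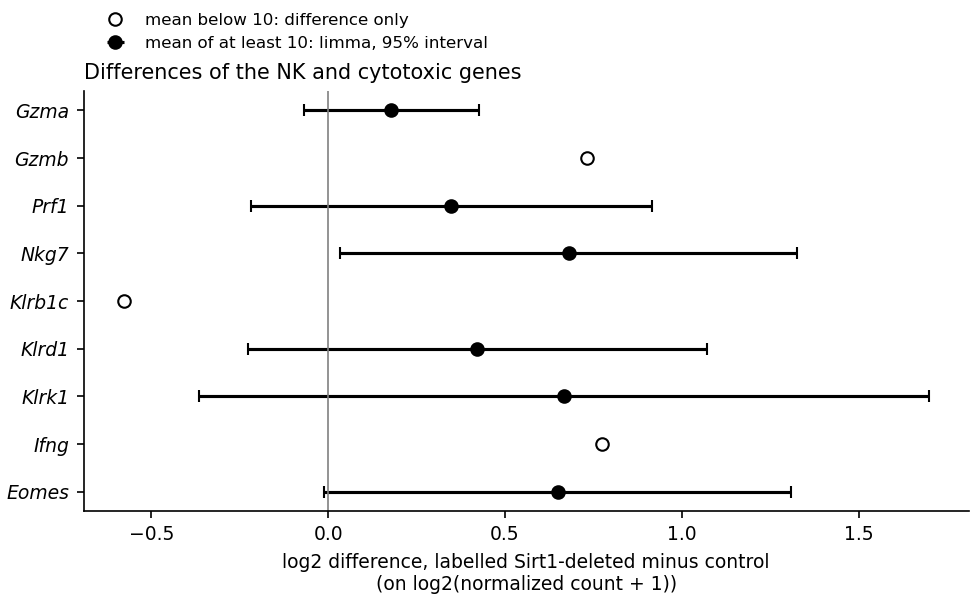
Log2 difference of each gene, labelled Sirt1-deleted minus control, on the log2(normalized count + 1) scale. Filled points carry the 95% interval from limma and open points mark the 3 genes below the minimum mean, so the reader sees 1 narrow interval (Gzma) and 5 wide ones.

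Levels were compared between genes per kilobase of the longest coding transcript in GENCODE M21 (GRCm38). Gzma averaged 14190 normalized counts per kb over all samples, rank 152 of 17113 genes. This was 1.71 times the level per kb of Cd3e, a chain of the T-cell receptor complex, at 8289. Other chains of that complex were Cd3d at 8465 and Cd3g, named after its values were seen, above Gzma at 15310. Next among the described genes were Nkg7 at 63.4, Klrd1 at 31.6 and Eomes at 14.0 per kb. Prf1, Gzmb, Klrk1 and Ifng followed at 7.51, 6.92, 5.75 and 4.97 per kb. Neighbours in this order differ by less than the SDs within groups, which were 1.69 to 9.74 per kb for these 4 genes, so their order is not resolved. Klrb1c was last at 1.94. Per kb, Gzma was 224 times Nkg7, 1890 times Prf1 and 2050 times Gzmb.

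Markers that define NK cells were far below Gzma in level. Beside Klrb1c, the receptor genes Klra8, Klra4 and Klre1 were between 0 and 11.9 in all libraries. Klra8 was listed at 0 in control replicates 4 and 5, and Klra4 at 0 in control replicates 5 and 6 and labelled replicate 12. Tbx21, the T-box factor T-bet, measured 114 ± 14.7 in the labelled samples and 127 ± 8.83 in controls (limma adjusted p = 0.323), and Itga2, the DX5 antigen, 28.6 ± 13.7 and 30.2 ± 12.5 (adjusted p = 0.855). Eomes, also among these markers, had the larger log2 difference of 0.65 given above (limma adjusted p = 0.114). Of the 8 NK markers listed, 7 had values, 3 were tested and 0 passed. Their summed level was 182 to 263 in the labelled samples and 176 to 230 in controls, most of it Tbx21. Which cells carried the Gzma transcript was not tested.

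**Figure D3:**
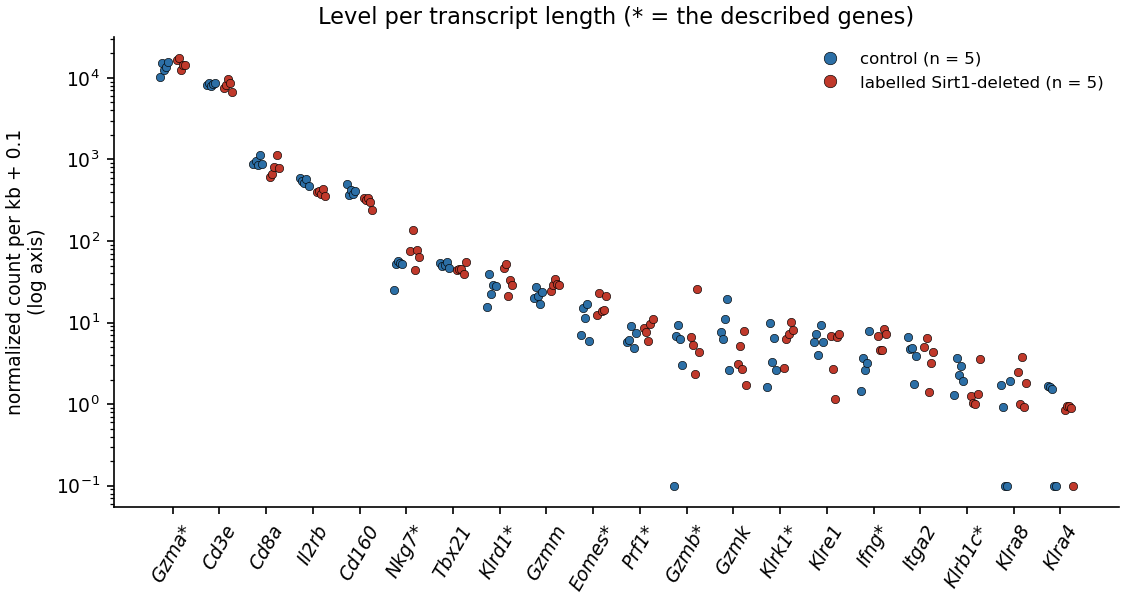
Normalized count per kb of transcript plus 0.1 (log axis) for the described genes (starred) and selected NK and T-cell genes in each sample, controls in blue and labelled Sirt1-deleted samples in red. Gzma lies level with or above Cd3e, while Klrb1c, Klra8 and Klra4 lie at the bottom of the range.

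Gzma, Nkg7 and Klrd1 shared some of their extreme libraries. Control replicate 2 was the lowest control and labelled replicate 10 the lowest labelled sample for all 3, and labelled replicate 8 was the highest for all 3. The highest control differed, being replicate 6 for Gzma, replicate 4 for Nkg7 and replicate 3 for Klrd1. Over the 9 genes, control replicate 2 was the lowest of all 10 libraries in 6, and labelled replicate 10 was the lowest of its group in 6. Their approximate depths, 35.1 and 31.9 M reads, were within the range of the others. Klrk1 was also lowest in control replicate 2, but among the labelled samples it was lowest in replicate 7 and highest in replicate 11. These libraries also differed in other genes: H2-K1, an MHC class I gene, was 9698 in control replicate 2 against 14028 to 15293 in the other controls. The part of such library differences in the values above was not tested.

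**Figure D4:**
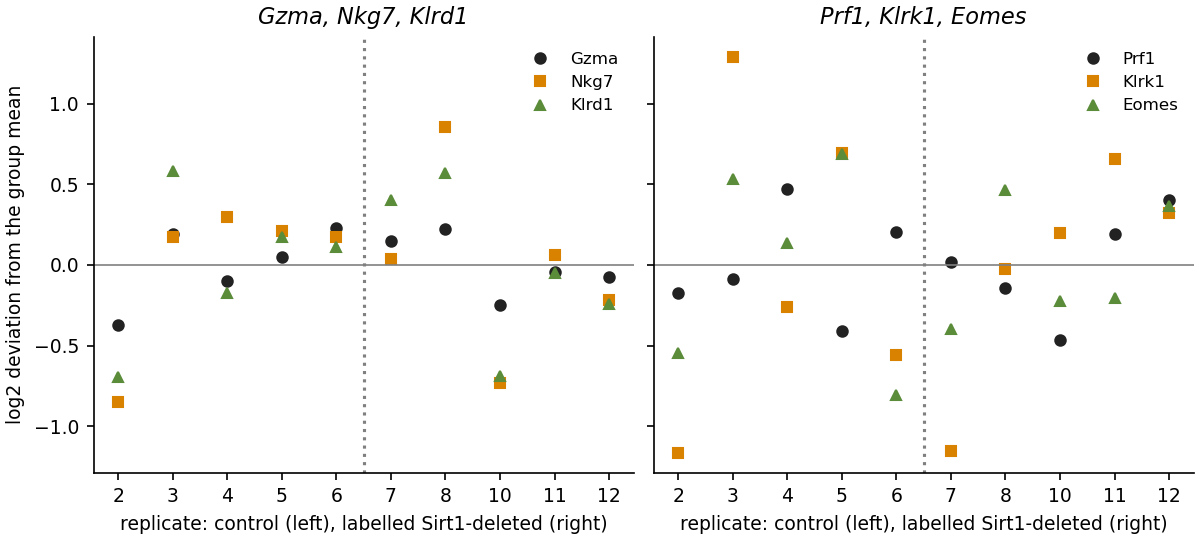
Deviation of each sample from its group mean on the log2 scale, for Gzma, Nkg7 and Klrd1 (left panel) and for Prf1, Klrk1 and Eomes (right panel), with replicate numbers on the horizontal axis. In the left panel control replicate 2 and labelled replicate 10 lie lowest for all 3 genes, an order the right panel lacks.

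As a description of likeness, the mean log2 value of the 6 tested genes, with group means subtracted, was correlated with every other tested gene over the 10 samples. The highest Pearson coefficients were 0.941 for Fgfr1op, 0.919 for Ifit3b, 0.918 for Nme4, 0.903 for Iigp1 and 0.895 for Msantd1, and 82 of 15125 genes reached 0.8. All points share libraries and scaling, so no p is given. Ifit3b and Iigp1 are interferon-induced genes. Iigp1 was lowest in the same libraries, which its choice by this correlation favours. It was 63.1 in control replicate 2 against 127 to 191 in the other controls. In labelled replicate 10 it was 310 against 526 to 764 in the other labelled samples. Between the groups Iigp1 rose by 2.11 on the log2 scale (limma adjusted p = 5.78e-04). Ifit3b measured 15.0 to 97.3 in the labelled samples and 0.962 to 17.3 in controls. Ifit3b reached the minimum mean only through the labelled group, so no fold is given for it. Fgfr1op fell by 0.14 (adjusted p = 0.0257), a call lost in 6 alternatives, among them quantile normalization (adjusted p = 0.210). Nme4 differed by -0.09 (adjusted p = 0.476) and Msantd1 by 0.46 (adjusted p = 0.256).

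The remaining granzymes gave few values. Of 8 listed, Gzmm and Gzmk had values, and Gzmc, Gzmd, Gzme, Gzmf, Gzmg and Gzmn were not analysed here. Gzmm measured 31.4 to 43.8 in the labelled samples and 21.5 to 34.6 in controls (log2 difference 0.43 ± 0.19 SE, adjusted p = 0.0963 by limma). Before adjustment its limma p was 0.0431, where 46.3% of tested genes were under 0.05, and its exact permutation p was 0.0159. Gzmm passed in the fit without an intensity trend (adjusted p = 0.0286). Gzmk, below the minimum mean, ranged from 2.1 to 10.2 and from 3.33 to 25.1 (exact permutation p = 0.111).

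Genes that load and release granules moved in both directions. Of 17 listed, 16 were tested, 2 rose and 6 fell, where 16.8% and 19.4% of all tested genes did, with a median log2 difference of -0.14. Upper-quartile rescaling turned the split over all genes from 2562 higher and 2956 lower to 3171 higher and 2247 lower. Ctsw, the cathepsin of cytotoxic lymphocytes, went up from 53.3 ± 3.11 to 86.0 ± 11.8 normalized counts (mean ± SD of 5 samples, as in the pairs that follow; log2 difference 0.67 ± 0.14 SE, adjusted p = 0.00392 by limma), with no overlap between groups. Vamp8, a SNARE of secretory granules, rose by 0.35 (adjusted p = 0.00567). Srgn, the proteoglycan that packs granule contents, fell from 2522 ± 193 to 1995 ± 219 (log2 difference -0.34, adjusted p = 0.00705). Lyst, the lysosomal trafficking regulator, fell by 0.36 (adjusted p = 0.00611) and Vamp7 by 0.28 (adjusted p = 0.00758). None of these genes is restricted to NK cells.

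Among 30 other NK receptors and adaptors, 12 were tested, 4 rose and 2 fell (median 0.44), beside 16.8% and 19.4% of all tested genes. The largest rises were in adaptors and an Fc receptor that myeloid cells also carry. Tyrobp, which encodes DAP12, rose from 92.5 ± 12.2 to 290 ± 73.8 (log2 difference 1.61 ± 0.16 SE, adjusted p = 1.07e-04 by limma). Fcer1g, the common Fc receptor gamma chain, rose by 1.66 (adjusted p = 4.46e-04) and Fcgr3, the Fc receptor CD16, by 1.60 (adjusted p = 0.00101). Beside them, 9 of 10 neutrophil markers rose, with a summed level of 26485 to 90564 against 8213 to 11439 in controls, and 9 of 10 macrophage and monocyte markers rose, with 4110 to 6260 against 2255 to 2628. Their part in the rise of the adaptors was not tested. Cd160, a receptor of NK and T cells, fell from 1078 ± 135 to 793 ± 102 (log2 difference -0.45, adjusted p = 0.00689), and Cd247, the zeta chain, fell by 0.20 (adjusted p = 0.0237). The call of Cd247 was lost in 5 of the alternatives, upper-quartile rescaling among them (adjusted p = 0.0776).

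Of the transcription factors of the NK lineage, all 13 were tested, 2 rose and 3 fell (median -0.16), a share near the 36.1% of all tested genes that passed. Id2, which NK development requires, rose from 626 ± 66.6 to 870.5 ± 93.7 (log2 difference 0.48 ± 0.09 SE, adjusted p = 0.00286 by limma), and Tox2 rose by 0.36 (adjusted p = 0.0143). Ets1 fell from 34181 ± 944 to 25600 ± 1528 (log2 difference -0.42, adjusted p = 2.29e-04), Tox by 0.35 (adjusted p = 6.08e-04) and Nfil3 by 0.39 (adjusted p = 0.0215). Nfil3 lost its call without control replicate 2, control replicate 4 or labelled replicate 12 (adjusted p = 0.0503 to 0.0511). These factors also act in T cells.

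Cytokine genes that support NK cells gave 4 rises and 5 falls among 14 tested of 17 listed (median -0.07), beside 16.8% and 19.4% of all tested genes. Il2rb, the beta chain shared by the IL-2 and IL-15 receptors, fell from 2260 ± 208 to 1665 ± 129 (log2 difference -0.44 ± 0.07 SE, adjusted p = 0.00138 by limma). Il12rb2, a chain of the IL-12 receptor, fell from 1031 ± 97.4 to 603 ± 206 (log2 difference -0.84, adjusted p = 0.00609). Il2ra fell by 0.73 (adjusted p = 0.0415) with overlapping groups, and it lost the call in 9 alternatives. On the rising side were Il18, an inducer of interferon gamma, from 33.1 ± 10.8 to 78.6 ± 25.2 (log2 difference 1.23, adjusted p = 0.00543), its inhibitor Il18bp by 0.77 (adjusted p = 8.97e-04) and the receptor gene Il18r1 by 0.69 (adjusted p = 0.00954). Il18r1 missed the threshold after quantile normalization (adjusted p = 0.0737).

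The interferon gamma receptor and early response genes changed in 10 of 12 cases, 7 higher and 3 lower (median 0.34), where 36.1% of all tested genes passed. Cxcl10 rose from 11.7 ± 7.77 to 55.1 ± 10.7 (log2 difference 2.34 ± 0.37 SE, adjusted p = 0.00106 by limma) and Nlrc5 by 0.75 (adjusted p = 0.00848). Both respond to type I interferon as well. The receptor chain Ifngr1 fell by 0.42 (adjusted p = 3.90e-04), Jak2 by 0.45 (adjusted p = 0.00163) and Jak1 by 0.35 (adjusted p = 0.00303).

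Effector chemokines and homing receptors gave 3 rises and no fall among 10 tested (median 0.21), a share not above the 36.1% of all tested genes that passed. Cx3cr1, a receptor of NK cells and monocytes, rose from 24.3 ± 2.83 to 48.9 ± 10.7 (log2 difference 0.95 ± 0.21 SE, adjusted p = 0.00439 by limma). Cxcr6 rose by 0.63 (adjusted p = 0.0414), a call lost in 10 alternatives. The third was Cxcr3, named here after its values were seen, which rose by 0.77 (adjusted p = 0.0424) at a mean of 19.6 normalized counts. With a minimum mean of 1 the list gave 1 call of 10, and it also gave 1 without control replicate 2, without control replicate 6 or without labelled replicate 12.

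Ligands that NK receptors read on target cells gave 3 rises and 1 fall among 8 tested of 16 listed (median 0.43), beside 16.8% and 19.4% of all tested genes. Ulbp1, a ligand of NKG2D, fell from 865 ± 114 to 532 ± 48.7 (log2 difference -0.69 ± 0.10 SE, adjusted p = 6.40e-04 by limma), with no overlap between groups. H2-T23, which encodes Qa-1, the ligand of CD94 with NKG2A, rose from 2405 ± 185 to 3733 ± 567 (log2 difference 0.62, adjusted p = 0.00111). Clec2d, a ligand of an inhibitory NKR-P1 receptor, rose by 0.79 (adjusted p = 0.0109), and H2-K1 by 0.42 (adjusted p = 0.0236). The call of H2-K1 was lost in 3 alternatives, among them without labelled replicate 7 (adjusted p = 0.0610).

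**Figure D5:**
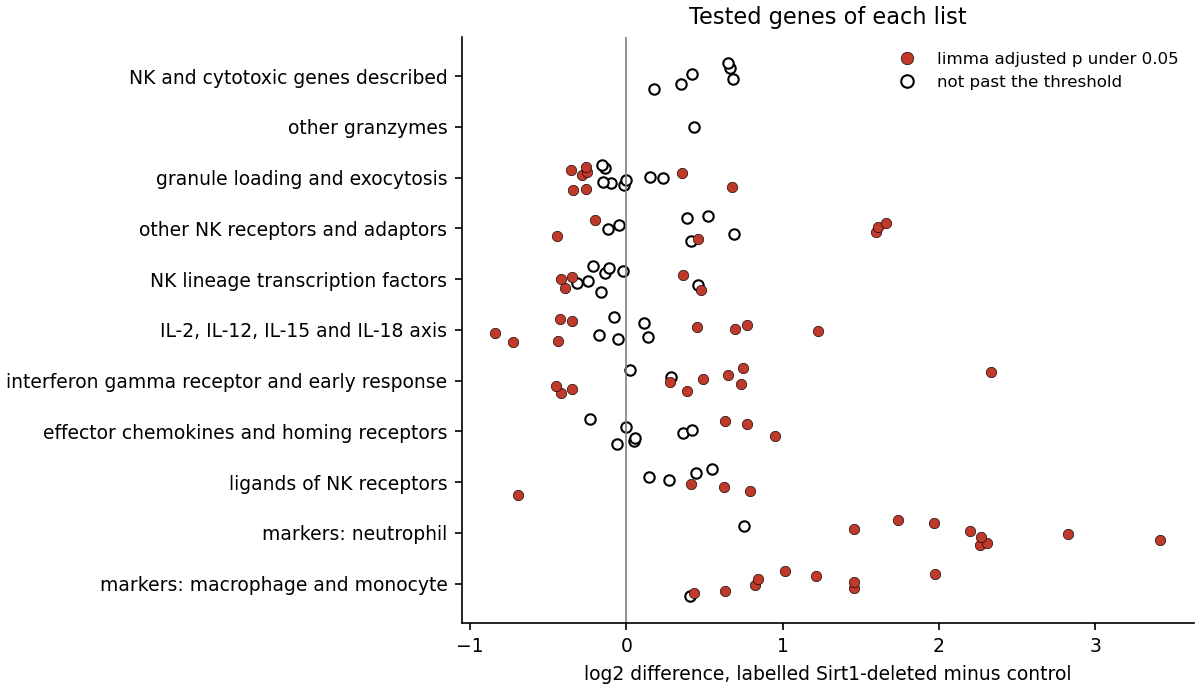
Log2 difference of every tested gene, labelled Sirt1-deleted minus control, by list, with red points for a limma adjusted p under 0.05 and open points for the rest. The described genes hold 6 open points, while the lists around them hold points past the threshold on both sides of 0 and the neutrophil and macrophage markers lie to the right.

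Other cells can carry cytotoxic genes, and their markers were measured in the same libraries. Of 9 T-cell markers, a share near the 36.1% of all tested genes passed: Trbc2 and Cd3d rose and Cd8b1 fell by 0.47 (limma adjusted p = 5.81e-04), with summed levels of 166074 to 186148 in the labelled samples and 149511 to 166800 in controls. Cd8a measured 2488 ± 638 and 2935 ± 371 (adjusted p = 0.164), and Cd4 3934 ± 727 and 4361 ± 105 (adjusted p = 0.227). Of 6 gamma delta T-cell markers 4 were tested, 0 rose and 1 fell: Tcrg-C1, a constant segment of the gamma chain, went from 65.5 ± 21.4 to 14.5 ± 3.31 (log2 difference -2.07, limma adjusted p = 3.01e-04), with no overlap. Tcrg-C4, named after its values were seen, was between 2933 and 4628 in all libraries (adjusted p = 0.493), and Trdc, the constant segment of the delta chain, was between 0 and 9.11. Basophils can carry Gzmb. Of 8 mast cell and basophil markers 4 were tested. Prss34 and Mcpt8 entered the test only because their labelled samples were high, so their calls are not counted here. The summed level of the listed markers was 111 to 214 against 97.3 to 125. Cpa3 (log2 difference -0.45, limma adjusted p = 0.146) and Gata2 (0.13, adjusted p = 0.655), named after their values were seen, did not pass. Prss34 and Mcpt8 are given by their values. Prss34 measured 14.0 to 66.8 in the labelled samples and 1.93 to 8.66 in controls. Mcpt8 measured 2.87 to 36.3 in the labelled samples and 0 to 3.99 in controls, with 3 controls at 0. Both genes reached the minimum mean only through the labelled group, so no fold is given. Among plasmacytoid dendritic cell markers, 2 of 4 tested rose, Bst2 and Siglech, where 16.8% of all tested genes did. Ccr9 (log2 difference 0.09, limma adjusted p = 0.723) and Tcf4 (0.03, adjusted p = 0.821), named after their values were seen, did not pass. In controls Bst2 was at 2074 ± 240 and Siglech at 12.7 ± 3.84. Siglech had a median of 22.3 against 11.1 with overlapping groups (limma adjusted p = 0.0312). That call was lost in 7 alternatives, quantile normalization among them (adjusted p = 0.143). The part of these cells in the values of the described genes was not tested.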

How the data were processed

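Gene expression was measured by strand-specific RNA sequencing of 10 samples of leukemic spleen. The authors deposited DESeq-normalized gene counts, a signal scaled per sample, as the table's name and column totals show. The authors used kallisto 0.44.0, DESeq and mm10, per the submitters' processing notes, which give them no role. The annotation, the gene filter and the steps from transcripts to genes are not given in the sources used here. The table had 0 columns outside the 10 samples. Between 69.5% and 73.9% of low values lay within 0.1 of a whole multiple of the most frequent low value, so raw reads were not recovered and no count model was used.

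Log2(value + 1) was tested for genes with a mean of at least 10 by limma 3.58.1 in R 4.3.3 (group as the only term, intensity trend), with Benjamini-Hochberg adjustment over all 15276 tested genes at 0.05. The pseudocount understates changes of low genes. The script was tested on simulated counts with the same dispersion setting for every gene, so that test does not give its power for the described genes. Exact permutation tests are two-sided over 252 assignments of samples, with a smallest p of 0.00794. The alternatives changed the pseudocount (0.1 or 5), the minimum mean (none, 1 or 50), the scaling (upper quartile or quantile) and the fit (no trend, sample weights, or an exact rank-sum test instead), or dropped each sample in turn.

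The genes and lists were chosen with earlier results of these data known. Genes named are the 10 described, Sirt1, the NK and other defining markers, all granzymes, the 5 genes most like the group, and, in each list, the 3 largest rises and falls with an adjusted p under 0.05 and a mean of at least 20. A gene that this rule names is not reported here. Transcript lengths, positions and shared 31-base stretches came from GENCODE M21, whose GRCm38 is the build mm10, and promoters from RefSeq (GRCm38.p6).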

Additional observations from a re-analysis of the deposited data

Results flagged for a closer look

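For every named gene with values, the lowest and highest of the 5 samples in either group were compared with the rest by Dixon's ratio of gap to range. Of 156 sets, 12 were above 0.71, and chance at 1 in 20 would give 7.8.

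Among the cytotoxic genes, Gzmb was 37.4 normalized counts in labelled Sirt1-deleted replicate 11 against 3.22 to 9.29 in the others of its group. Klrb1c was 9.06 in labelled replicate 12 against 2.34 to 3.21 in the others. Nkg7 was 21.9 in control replicate 2 against 45.6 to 49.7 in the other controls. Klra4 was 0 in labelled replicate 12 against 0.927 to 1.07 in the others, a step of about 1 read.

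Control replicate 2 was also the lowest control for Fcer1g (127 against 139 to 141), H2-K1 (9698 against 14030 to 15290) and Ly6c2 (88.8 against 138 to 152), and the highest for Jak1 (9461 against 8336 to 8630). Ctsw was 106 in labelled replicate 11 against 77.0 to 84.8 in the others. Cx3cr1 was 29.2 in control replicate 5 against 22.6 to 24.4. Prss34 was 8.66 in control replicate 3 against 1.93 to 3.29. S100a8 was 2403 in control replicate 4 against 1682 to 1761.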

How the results depend on the processing

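No paired analysis was possible because TMX and VEH samples have no replicate number in common. The number of the described genes past the threshold was 1 (Nkg7) with sample weights and 0 in the other 9 alternatives run on all samples, of which a minimum mean of 50 tested 2 genes. Leaving out 1 sample gave 0 to 1, the 1 being Nkg7 without labelled Sirt1-deleted replicate 10. The sign of each of the 9 log2 differences held in every alternative run for it. The number of all tested genes past the threshold was 3659 by exact rank sums (1691 higher and 1968 lower) and 4207 to 6259 without 1 sample. Effector chemokines and homing receptors gave 1 call with a minimum mean of 1, with no filter or after quantile normalization, 0 with a minimum mean of 50, where 4 were tested, and 1 to 4 without 1 sample (1 without control replicate 2, control replicate 6 or labelled replicate 12). Other granzymes gave 1 call, Gzmm, without an intensity trend. Small differences changed sign: Cd3e to 0.021 after upper-quartile rescaling and 0.028 without labelled replicate 12 (range without 1 sample -0.106 to 0.028), and Itga2 to 0.24 with sample weights, 0.060 without control replicate 2 and 0.22 without labelled replicate 10 (range -0.411 to 0.22). The cause was not tested. Upper-quartile rescaling moved the median log2 difference of all genes to 0.06, with 3171 called higher and 2247 lower, and quantile normalization to -0.03. Depth limits Gzmb, Klrb1c and Ifng to a few reads per library.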

Other observations

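Of 25 listed genes below the minimum mean, 1 had groups without overlap, Il15, which encodes the cytokine on which NK cells depend. It was chosen after its values were seen. Il15 measured 18.3, 11.3, 15.3, 9.66 and 27.3 normalized counts in labelled Sirt1-deleted replicates 7, 8, 10, 11 and 12, and 1.30, 1.42, 4.21, 1.62 and 6.32 in control replicates 2 to 6. Il15 was chosen by that lack of overlap. Any p or fold for Il15 from these same samples would follow from the choice, so none is given. Its receptor chain Il2rb fell in the same samples, and Il15ra did not pass (log2 difference 0.14, limma adjusted p = 0.425). The values rest on about 1 to 30 reads.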
